A study of Mus musculus with 11 samples.

Results

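Of 111041 accessible regions found in 11 libraries of mouse CD8 T cells, 19246 (17.3%) were open in every library and relatively stable on activation. Here stable means a centred difference between naive and day 3 effector cells within about 2-fold, not an unchanged level. Accessibility was measured by ATAC-seq, in which a transposase cuts and tags DNA that is not packed in nucleosomes. Regions were formed by merging peaks that overlapped by at least 1 bp across the libraries on the 19 autosomes and the X chromosome. The members were chosen by 2 criteria, a peak in all 11 libraries and a difference d between the effector and the naive library above -1 and below 1. Here d is log2(normalized tag count + 1) in the effector library minus that in the naive library, less the median of this difference over the 32333 regions with a peak in both, which was -0.71. The naive library was listed in windows of 132 bp and the effector library in windows of 172 bp, so d compares tags counted over different widths. The normalized tag count is the number of tags in a peak per 10 M tags of the library, and a region takes the value of its strongest peak. Members were 82.0% of the 23471 regions open in all 11 libraries. The remainder had a d of 1 or more (rising, 2400 regions) or of -1 or less (falling, 1825 regions), and the other 87570 regions had a peak in 1 to 10 libraries.

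All cells were CD8+ T cells from mouse spleen. Apart from the effector library, every group was gated on a Tcf7-YFP reporter, and Tcf7 encodes TCF-1, a transcription factor of naive and memory T cells. At day 9 there were 2 high_to_high libraries (Tcf7-YFP high when sorted at day 3, cultured again and Tcf7-YFP high at day 9), 3 low_to_high libraries (low at day 3, high at day 9) and 3 low_to_low libraries (low at both sorts), so that 5 libraries were YFP-high and 3 YFP-low. Single libraries came from effector cells activated for 3 days outside the animal, from antigen-experienced splenocytes (CD44+ CD62L+ Tcf7-YFP+) and from naive splenocytes (CD44- CD62L+ Tcf7-YFP+). Depth was 20.8 to 59.97 M tags a library. The labels name neither the mouse strain nor the animals or cultures behind the replicates, so p-values measure only the spread between these libraries, which may be technical. The libraries are bulk, so a region open in fewer cells and a region less open in each cell cannot be told apart.

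A cell of any type keeps open the promoters of the genes it needs to live and divide, and most of these promoters lie in CpG islands, stretches rich in unmethylated CG pairs that stay free of nucleosomes. Factors such as SP and KLF proteins, ETS proteins, NRF1, NF-Y and YY1 bind there. Sites that bind CTCF also tend to be open in many cell types, whereas enhancers open and close as a T cell is activated.

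The letters of 7 individual promoter windows come first, picked among the regions named for their level, their steadiness or a gene list. Each is the RefSeq promoter window of build GRCm38.p6, the same build as mm10, with 250 bases before and 50 after the annotated start, on the strand of the gene. Capitals mark exact matches, on either strand, to any of 13 short motifs that were searched, and runs of capitals can hold overlapping matches. The first 4 are CpG-rich. Hjurp, at chr1:88277530-88277829 on the minus strand, encodes the chaperone of the centromeric histone and was the promoter with the highest member. Mrpl32, at chr13:14612988-14613287 on the minus strand, encodes a mitochondrial ribosomal protein and shares its promoter with Psma2, a proteasome subunit gene on the other strand. Etfdh, at chr3:79628718-79629017 on the minus strand, encodes a mitochondrial dehydrogenase of fatty acid oxidation. Rpl13a, at chr7:45128696-45128995 on the minus strand, encodes a protein of the large cytosolic ribosomal subunit.
Hjurp: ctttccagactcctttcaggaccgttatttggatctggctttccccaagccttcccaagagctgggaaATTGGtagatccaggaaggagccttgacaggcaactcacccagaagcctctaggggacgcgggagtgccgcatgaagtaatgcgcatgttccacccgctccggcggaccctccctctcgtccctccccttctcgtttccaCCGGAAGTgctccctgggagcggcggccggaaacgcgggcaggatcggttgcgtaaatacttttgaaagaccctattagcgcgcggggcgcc
Mrpl32: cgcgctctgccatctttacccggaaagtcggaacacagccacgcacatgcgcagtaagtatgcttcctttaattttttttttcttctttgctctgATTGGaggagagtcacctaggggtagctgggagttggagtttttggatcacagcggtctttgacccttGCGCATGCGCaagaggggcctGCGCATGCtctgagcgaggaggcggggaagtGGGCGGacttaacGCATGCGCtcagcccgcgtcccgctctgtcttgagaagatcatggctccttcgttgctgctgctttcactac
Etfdh: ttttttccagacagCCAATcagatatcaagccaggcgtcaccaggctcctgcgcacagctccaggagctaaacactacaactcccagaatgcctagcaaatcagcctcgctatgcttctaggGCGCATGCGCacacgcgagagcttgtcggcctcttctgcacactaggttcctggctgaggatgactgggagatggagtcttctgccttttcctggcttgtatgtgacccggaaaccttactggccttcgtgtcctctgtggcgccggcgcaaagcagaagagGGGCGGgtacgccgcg
Rpl13a: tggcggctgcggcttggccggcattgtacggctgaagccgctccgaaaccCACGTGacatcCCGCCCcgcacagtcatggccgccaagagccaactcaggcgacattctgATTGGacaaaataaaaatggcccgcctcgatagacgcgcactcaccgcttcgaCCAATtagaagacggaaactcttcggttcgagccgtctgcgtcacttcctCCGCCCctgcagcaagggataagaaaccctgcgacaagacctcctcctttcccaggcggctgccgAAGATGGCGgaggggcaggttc
In the Hjurp window the ETS match CCGGAAGT began 42 bases before the start (-42) and an inverted CCAAT box stood at -182. The Mrpl32 window held 4 matches to the NRF1 motif GCATGCGC or its reverse, 2 of which overlap in the palindrome at -87, and the Etfdh window held an overlapping pair at -128. The Rpl13a window held the YY1 motif AAGATGGCG at 29 bases after the start, beside CCAAT boxes at -140 and -87. The other 3 windows are a histone gene, H3c6 (chr13:23562336-23562635, minus strand), and 2 T cell genes, Runx1 (chr16:92826025-92826324, minus strand), which encodes a transcription factor of T cell development, and Prf1 (chr10:61297586-61297885, plus strand), which encodes the pore-forming protein perforin.
H3c6: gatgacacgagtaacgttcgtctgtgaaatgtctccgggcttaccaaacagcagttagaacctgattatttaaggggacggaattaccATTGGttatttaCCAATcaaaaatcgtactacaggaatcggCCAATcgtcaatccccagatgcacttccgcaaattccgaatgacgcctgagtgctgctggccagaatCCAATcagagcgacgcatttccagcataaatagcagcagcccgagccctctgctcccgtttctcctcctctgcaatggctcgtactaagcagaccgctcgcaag
Runx1: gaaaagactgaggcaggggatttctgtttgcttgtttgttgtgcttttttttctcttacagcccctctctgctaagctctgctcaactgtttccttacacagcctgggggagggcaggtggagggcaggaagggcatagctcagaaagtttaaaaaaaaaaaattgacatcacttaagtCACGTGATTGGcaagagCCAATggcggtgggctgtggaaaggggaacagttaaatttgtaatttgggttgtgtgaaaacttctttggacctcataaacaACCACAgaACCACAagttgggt
Prf1: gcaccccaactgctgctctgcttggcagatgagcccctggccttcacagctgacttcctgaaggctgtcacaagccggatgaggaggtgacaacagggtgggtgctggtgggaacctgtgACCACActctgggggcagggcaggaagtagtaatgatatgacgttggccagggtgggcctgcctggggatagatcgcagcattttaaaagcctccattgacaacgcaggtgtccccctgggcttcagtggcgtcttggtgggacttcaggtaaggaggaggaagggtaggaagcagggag
The H3c6 window held 4 CCAAT boxes in either orientation between -162 and -54. The Runx1 and Prf1 windows had 2 and 5 CG pairs, against 17 to 27 in the other 5 windows, and both held the RUNX motif read from the opposite strand, at 29 and 37 in Runx1 and at -130 in Prf1.

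Promoters made up 38.0% of the members. This share covers the 15576 members whose nearest protein-coding gene has a window in the promoter table, or that have no gene within 100 kb, and a promoter here is an overlap with a window. It was 10.3% for rising regions, 15.8% for falling regions, 4.95% for regions with a peak in 1 to 10 libraries and 11.02% for all regions. A further 33.0% of members lay inside a gene away from a promoter, and 29.0% lay outside genes, at a median distance of 10263 bp from the nearest gene. Members had a median width of 277 bp, against 296 bp for rising regions, 263 bp for falling regions and 179 bp for regions with a peak in 1 to 10 libraries.

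Among members with a mean normalized tag count under 8 over the 9 libraries other than naive and effector, 2.19% lay at a promoter. The share was 4.87% at 8 to 12, 11.3% at 12 to 20, 43.9% at 20 to 40, 72.0% at 40 to 80 and 86.9% at 80 or more. Rising regions had 9.06% under 8, 11.6% at 12 to 20 and 7.14% at 40 to 80, and falling regions had 23.9% at 40 to 80. Regions with a peak in 1 to 10 libraries had 31.7% at 40 to 80. At 80 or more the share was 33.3% of 21 falling regions and 32.3% of 31 regions with a peak in 1 to 10 libraries. The level of such a region is the mean over those of the 9 libraries that called it. Regions called in naive or effector cells alone have no level and are left out, so the levels are not fully matched to those of members. Below a level of 12 the members' share lay under that of regions with a peak in 1 to 10 libraries, which had 3.53% under 8 and 5.46% at 8 to 12. These shares are descriptions, since neighbouring regions are not replicates.

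Of the 15576 members with a readable position, 6793 (43.6%) were centred within 1000 bp of a transcription start. Among these 6793, 3766 lay within 100 bp, the median position was -28 bp and 57.4% were upstream. Falling regions had 184 of 265 within 100 bp, at a median of -40 bp with 67.5% upstream. Rising regions were centred downstream, at 54.5 bp with 39.8% upstream, and regions with a peak in 1 to 10 libraries at 113.5 bp with 37.0% upstream.

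**Figure D1:**
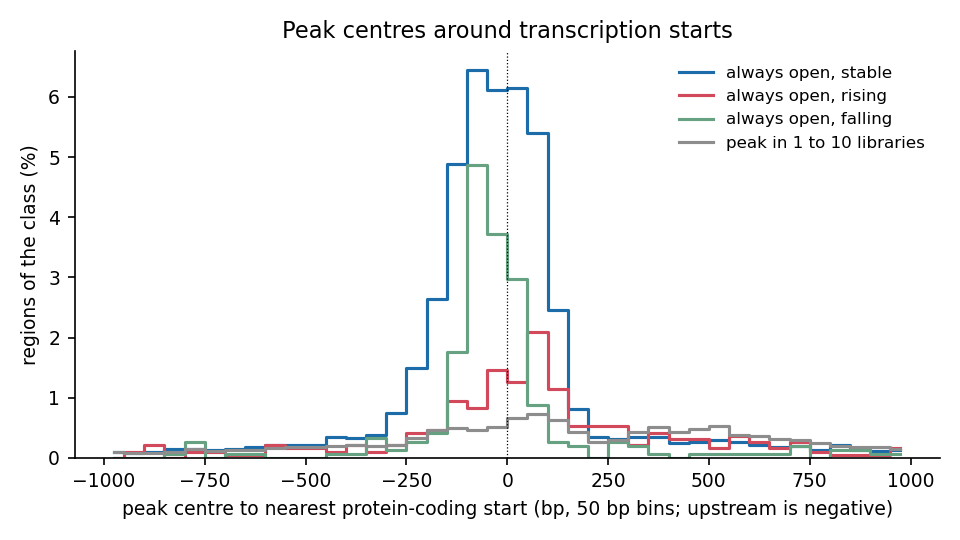
Percent of the regions of each class (y axis) by distance of the peak centre from the nearest protein-coding start, in 50 bp bins (x axis, upstream negative). Members (blue) peak just upstream of the start with a median of -28 bp, falling regions (green) at -40 bp, and rising regions (red) and less often open regions (grey) are centred downstream.

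A member covered 7132 of the 21045 promoter windows (33.9%), those of 6429 genes. These windows were rich in CG pairs in most cases. The median ratio of observed to expected CG pairs was 0.817 and 84.4% of windows reached 0.6. Over all windows the median was 0.574 and 48.1% reached 0.6. No criterion of length or of G and C content was applied, so the windows are not called CpG islands. Windows with no region in any library had a median of 0.247. Windows of rising and falling regions had medians of 0.700 and 0.725. A second gene started on the other strand within 1000 bp upstream in 24.1% of the members' windows, against 12.4% of all windows, 21.8% of windows of falling regions and 4.31% of windows of rising regions.

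The letters of 13 motifs were counted in these windows on both strands. The ETS motif CCGGAAGT stood in 12.3% of the members' windows and in 5.20% of all windows. The NRF1 motif GCATGCGC stood in 7.08 and 3.54%, the YY1 motif AAGATGGCG in 4.42 and 1.84%, the Zbtb33-type motif TCTCGCGA in 3.35 and 1.42%, and the cyclic AMP response element TGACGTCA in 4.37 and 2.26%, members' windows first. The SP and KLF motif GGGCGG stood in 69.2% of the members' windows and 46.7% of all windows, the E-box CACGTG in 11.8 and 7.91%, the CTCF core AGGGGGCGC in 2.69 and 1.72%, and the CCAAT box in 43.2 and 38.5%. Others ran the other way. AP-1 (TGANTCA), the motif of factors induced on activation, stood in 3.86% of the members' windows and 7.04% of all windows, the T cell motifs RUNX (TGTGGT) in 11.7 and 14.7% and TCF (CTTTGAA) in 3.09 and 4.55%, and the TATA box TATAAA in 5.45 and 12.7%. The 271 windows of falling regions had ETS in 9.23%, NRF1 in 7.75%, YY1 in 4.80% and AP-1 in 3.32%, with SP and KLF in 56.8%, RUNX in 15.5%, TCF in 6.64%, the TATA box in 8.12% and the Zbtb33-type motif in 1.11%. The 209 windows of rising regions had ETS in 2.39%, YY1 in 0% and AP-1 in 10.0%. They had SP and KLF in 66.5%, RUNX in 13.9% and TCF in 3.35%. All windows include 10243 with no region. Regions with a peak in 1 to 10 libraries had 3190 windows. Near the members' shares, these had SP and KLF in 65.7%, RUNX in 12.8%, TCF in 3.26% and the CTCF core in 2.41%. Further from them were ETS (3.13%), NRF1 (3.20%), YY1 (1.13%), the Zbtb33-type motif (0.815%) and the cyclic AMP response element (2.13%). So were the CCAAT box (30%), the E-box (8.37%), AP-1 (5.89%) and the TATA box (7.49%). These differences were not tested. The median share of G and C was 61.7% in the members' windows and 56.7% in all windows. It was 61.7% in windows of rising regions and 57.3% in those of falling regions. Windows of regions with a peak in 1 to 10 libraries had 63%, and windows with no region 50%. The part of composition in these motif shares was not tested. A match gives the letters and does not show that the factor binds.

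**Figure D2:**
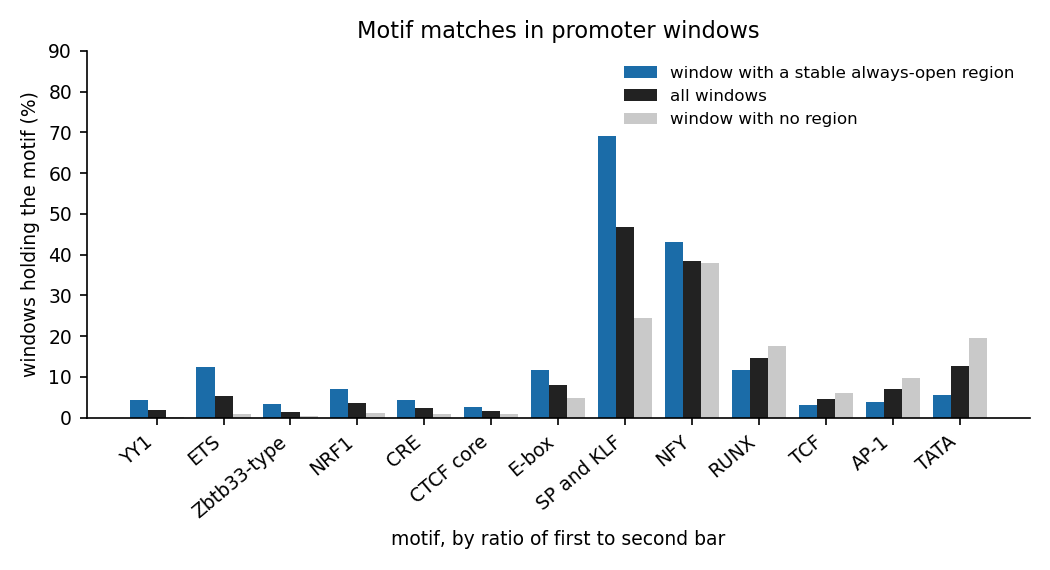
Percent of promoter windows that hold each motif on either strand (y axis), for windows covered by a member (blue), all 21045 windows (black) and windows with no region (grey). Motifs are ordered by the ratio of the first to the second bar, from YY1 (4.42 against 1.84%) to the TATA box (5.45 against 12.7%).

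The higher a member at a promoter, the more CpG-rich and the more often shared by 2 genes its window was. In 4 equal parts of the members' windows by level, the median observed to expected ratio was 0.732, 0.819, 0.841 and 0.861 from lowest to highest. The share with a divergent start was 11.2, 21.8, 29.0 and 34.3%. The CCAAT box stood in 34.4, 35.8, 43.7 and 58.7% of the windows and the Zbtb33-type motif in 0.841, 3.20, 4.54 and 4.82%, whereas the ETS motif was most frequent in the middle parts, at 14.6 and 15.2%, against 8.36% in the lowest and 11.1% in the highest.

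Genes of basic cell functions had a member at most of their promoters. A member stood at the promoter of 37.2% of the 17274 protein-coding genes with a window. For cytosolic ribosomal proteins it was 57 of 62 genes with a window, and the 5 others were Rpl39, with a region not open in every library, and Rpl10l, Rpl32l, Rpl39l and Rpl3l, with none. Rpl13a, whose sequence is given above, had 86.2 and 67.5 tags per 10 M in high_to_high libraries, 88.1, 98.4 and 96.0 in low_to_high and 95.8, 110.5 and 101.0 in low_to_low libraries. The effector library held 60.5 tags per 10 M there, the antigen-experienced library 166.4 and the naive library 154.7. On this deposited scale the high_to_high values lay below those of both other day 9 groups, which overlapped each other, and the YFP states overlapped. The antigen-experienced and naive libraries were the highest. The d of this promoter was -0.63. With each day 9 library centred on its median, the log2 difference of high_to_high against low_to_low was -0.13 ± 0.12 (SE; limma, adjusted p = 0.787).

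Mitochondrial ribosomal proteins had a member at 61 of 69 promoters, respiratory complex I at 30 of 33 and the proteasome at 28 of 31. The shared promoter of Mrpl32 and Psma2 averaged 95.9 tags per 10 M over the 9 libraries other than naive and effector, and that of Ndufb5 (a complex I subunit) and Mrpl47 averaged 88.8. The 3 proteasome genes without one were Psmc6, with a rising or falling region, Psma4, with a region not open in every library, and Psmb8, an interferon-induced subunit, with none. For complex I the exceptions were Ndufa10 and Ndufb10 (region not open in every library) and Ndufa13 (none). The list of translation initiation factors was drawn by gene symbol (Eif) and also holds other genes, such as the kinase gene Eif2ak3. It had a member at 37 of 43 promoters, with Eif2ak3 at 104.3 and Eif5a at 98.3 tags per 10 M. Core splicing factors had a member at 17 of 19, all but Sf3a3 and Snrpd2, with Sf3b2 at 79.9 tags per 10 M. Subunits of RNA polymerase II had a member at 8 of 10, all but Polr2a and Polr2l, with Polr2h at 74.6. Of the genes of cohesin, CTCF and other chromatin organisers, 7 of 9 had one (Ctcf, Smc1a, Stag1, Pds5a, Pds5b, Yy1 and Satb1), and Wapl and Smc3 did not.

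Among T cell genes, the share with a member at the promoter was 28.6% for identity genes, 18.2% for naive and memory genes and 42.9% for effector genes, against 37.2% of all genes, and these differences were not tested. Of 14 T cell identity genes with a window, 4 had a member at the promoter: Runx3 (84.5 tags per 10 M over the 9 libraries), Themis (56.4), Runx1 (48.6) and Lat (33.3). Lck and Zap70, kinases of T cell receptor signalling, had a rising or falling region, Cd3e, Cd3g, Cd247, Cd8a, Cd5 and Gata3 a region not open in every library, and Cd3d and Bcl11b no region in the window. Of 11 naive and memory genes, Id3 (39.5) and Satb1 (23.5) had a member, and of 14 effector genes 6 did: Id2 (67.2), Il2ra (60.3), Prf1 (47.2) and Prdm1 (42.8), with Fasl and Irf4 below them. Gzmb, Ifng and Batf had a rising or falling region. The lists were drawn up with earlier results of these data known, and their counts are descriptions.

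The cell type of the label was read from marker genes. Of 12 CD8 T cell markers in the gene table, 8 were the nearest gene of a member, with 14 regions in all. The counts were 2 of 7 genes and 2 regions for B cells, 3 of 7 and 4 for myeloid cells, 3 of 4 and 8 for natural killer cells, 2 of 5 and 5 for CD4 and regulatory T cells, 1 of 5 and 1 for erythroid cells and 3 of 5 and 5 for stroma. At promoters, members stood at 2 of 10 CD8 T cell markers, at Cebpa among 3 myeloid and Ctla4 among 3 CD4 and regulatory markers, and at none of the 3 B cell, 4 natural killer, 5 erythroid and 2 stromal markers with a window. Out of all regions nearest to a listed gene, members were 14 of 129 for CD8 T cells, 2 of 57 for B cells, 4 of 35 for myeloid cells, 8 of 39 for natural killer cells, 5 of 47 for CD4 and regulatory T cells, 1 of 4 for erythroid cells and 5 of 30 for stroma, against 17.3% of all regions. Members by themselves thus do not mark the labelled cell type. What other cells in the sorts add to the members was not tested.

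Members carried 43.3 to 57.7% of the signal in peaks. Their share of the summed normalized tag count of all regions was 54.9 and 49.6% in high_to_high, 56.5, 55.5 and 55.6% in low_to_high and 55.3, 54.4 and 55.8% in low_to_low libraries, and 43.3% in effector, 57.7% in antigen-experienced and 54.8% in naive cells. YFP-high libraries had 54.4% ± 2.74 (SD, n = 5) and YFP-low libraries 55.2% ± 0.689 (n = 3), a difference within the spread (exact permutation test, two-sided, p = 1). High_to_high replicate 2 was the lowest of the 8. Its peaks were listed in windows of 136 bp, against 172 bp in the other day 9 libraries, and it had the most regions of the 8, 62079 against 46358 to 56668. Without it, the difference was 0.45 percentage points, higher in YFP-high libraries (exact permutation test, two-sided, p = 0.457). The effector library had the most regions of the 11, 66044. With the sum limited to the 34383 regions that had a peak in each day 9 library, its share was the highest, at 78.9%. Naive cells then had 73.2%, antigen-experienced cells 71.8% and day 9 libraries 65.5 to 66.7%. The low place of the effector library thus depended on which regions were summed, and nothing is read from either order. Of the 1000 strongest regions of a library, 842 to 919 were members.

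The median member had 20.5 and 20.4 tags per 10 M in high_to_high, 22.8, 24.2 and 21.6 in low_to_high and 24.6, 29.9 and 25.1 in low_to_low libraries. It had 17.2 in effector, 36.2 in antigen-experienced and 30.4 in naive cells. The 3 highest medians, antigen-experienced, naive and low_to_low replicate 2, came from the 3 libraries with the most tags in peaks. The percent of all tags that fall in peaks was 9.01 to 10.2% in YFP-high and 10.4 to 12.5% in YFP-low libraries without overlap (exact permutation test, two-sided, p = 0.036, the smallest that 5 against 3 allows), and 9.08% in effector, 15.8% in antigen-experienced and 15.0% in naive cells. Day 9 libraries were therefore centred on their median before any region was compared.

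Members at promoters stood higher above distal members in some libraries than in others. The median promoter member exceeded the median distal member by 1.34 ± 0.05 in YFP-high libraries (SD, n = 5) and by 1.43 ± 0.03 in YFP-low libraries (n = 3), on the scale of log2(normalized tag count + 1). The difference of -0.09 did not pass (exact permutation test, two-sided, p = 0.071), and low_to_high replicate 1, at 1.42, lay within the YFP-low range of 1.40 to 1.45. The excess was 1.30 in effector, 1.69 in antigen-experienced and 1.68 in naive cells. The median promoter member had 64.8 tags per 10 M in naive and 29.0 in effector cells, and the median distal member 19.5 and 11.2. Among members with a mean normalized tag count of at least 20 the difference between YFP states was -0.03 (exact permutation test, two-sided, p = 0.357). The percent of tags in peaks moved with the excess, and its part in it was not tested.

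The strongest members lay outside the promoter windows. The mean over the 9 libraries exceeded 250 tags per 10 M in 5 members. Of these, 3 lay close together on chromosome 2 between 98662577 and 98667227 (mm10) with no gene within 100 kb, at means of 1039, 429 and 299.6. The fourth, at chr9:35305358-35305544 near Rpusd4, averaged 301, and the fifth, inside Chl1, averaged 283. All 5 had their lowest day 9 value in high_to_high replicate 2 (for the highest, 630.8 tags per 10 M against 879.3 to 1413.6 in the other 7). That library alone among the day 9 libraries had narrow windows. No list of regions that gather reads in any experiment was used here.

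Hjurp was the highest member at a promoter. It held 125.5 and 108.1 tags per 10 M in high_to_high, 135.6, 136.5 and 121.4 in low_to_high and 147.3, 174.0 and 137.5 in low_to_low libraries, and 86.8 in effector, 225.8 in antigen-experienced and 164.8 in naive cells. On the deposited scale the 5 YFP-high values lay below the 3 YFP-low values. After centring they overlapped, with a log2 difference of -0.06 ± 0.09 (SE; limma, adjusted p = 0.904). Among the next were Lrch4 (121.5 tags per 10 M over the 9 libraries), the promoter of Hnrnpc, a nuclear RNA-binding protein (120.3), Etfdh (115.3), Stt3a of protein glycosylation (115.1), the tubulin gene Tubb4b (113.2) and the MAX partner Mxd4 (112.6).

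Most members differed little across the 9 libraries other than naive and effector. Among 11247 members with a mean of at least 20, the range of centred log2 values had a median of 0.49, from 0.14 to 3.24. It was under 0.25 in 334 members, of which 65.8% lay at promoters, against 59.3% of all those members. The 10 smallest ranges, 0.14 to 0.16, included the promoters of Ppp4c (a phosphatase subunit), Vasp (an actin regulator), H3c6, Scly (selenocysteine lyase), Mrpl22, Cplane1 and Sdf4, and distal regions near Ergic1, Abr and Chsy1. H3c6 held 52.9 and 53.4 tags per 10 M in high_to_high, 64.3, 63.2 and 61.9 in low_to_high and 64.8, 80.4 and 70.9 in low_to_low libraries, with 49.6 in effector, 98.0 in antigen-experienced and 94.5 in naive cells. As for the median member, the antigen-experienced and naive libraries were the highest and the effector library the lowest.

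Over the 8 day 9 libraries, the SD of a region had a median of 0.161 for members, 0.189 for rising, 0.151 for falling and 0.197 for less often open regions (log2 scale). At a mean of 20 to 40 tags per 10 M these medians were 0.152, 0.160, 0.151 and 0.158. At a mean of 8 to 12 they were 0.203, 0.214, 0.226 and 0.226.

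The range exceeded 2 in 19 members, and 0 of those with a readable promoter status overlapped a promoter window. In 8 of the 10 named ones, all 8 day 9 values lay above the effector, antigen-experienced and naive values. The region 76127 bp from Dipk2a (chr9:94441467-94441737) had 34.3 and 34.6 tags per 10 M in high_to_high, 31.9, 37.6 and 42.5 in low_to_high and 28.9, 49.0 and 35.0 in low_to_low libraries, against 10.8 in effector, 6.6 in antigen-experienced and 12.5 in naive cells. The region 15693 bp from Rbbp8nl (chr2:180305593-180305871) had 44.8 to 57.4 over the 8 day 9 libraries, against 11.5 in effector, 16.6 in antigen-experienced and 10.9 in naive cells. The other 6 lay near or inside Grxcr2, Ncald, Kif5b, Ceacam15, Rabgap1l and Myadm. After centring, the YFP states overlapped in 5 of these 8 and not in Ncald, Rbbp8nl and Myadm. For Rbbp8nl the log2 difference of YFP-high against YFP-low was 0.27 ± 0.09 and for Myadm 0.47 ± 0.12, which did not pass (limma, adjusted p = 0.302 and 0.085). Myadm passed in high_to_high against low_to_low libraries (0.61 ± 0.15, limma, adjusted p = 0.043). A region inside Foxp1, a forkhead factor of T cell quiescence, ran the other way, with 11.3 to 26.7 at day 9, against 32.6 in effector, 83.7 in antigen-experienced and 86.7 in naive cells. The region near Uqcrfs1 had 26.7 to 36.8 at day 9, 26.4 in effector and 40.2 in naive cells and was low in the antigen-experienced library alone, at 12.4.

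**Figure D3:**
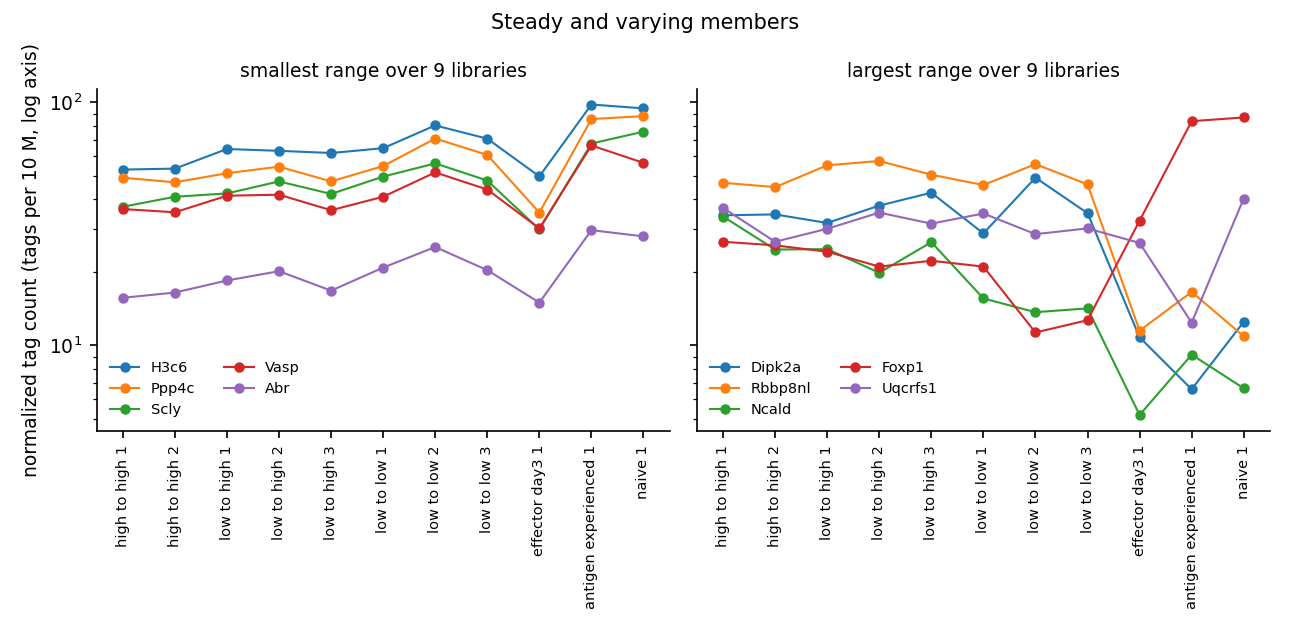
Normalized tag count (y axis, log scale, tags per 10 M) in each of the 11 libraries (x axis) for 5 members with small ranges (left; H3c6, Ppp4c, Scly, Vasp and Abr) and 5 with large ranges (right). On the left the lines rise and fall together, while on the right Dipk2a, Rbbp8nl and Ncald stand higher in all 8 day 9 libraries than in the 3 single libraries, and Foxp1 lower.

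Across all members, 354 (1.84%) were more than 2-fold higher in the mean of the 8 day 9 libraries than in the antigen-experienced library after centring, against 6.2% of the 31266 regions called in those 9 libraries. Another 129 (0.670%) were more than 2-fold lower, against 1.6% of regions. In each of the 8 libraries singly, 158 members were higher and 30 lower, against 1024 and 156 of the 31266 regions. At promoters 9 were higher and 15 lower among 5920 members. Away from promoters 277 were higher and 88 lower among 9656. The antigen-experienced value comes from a single library without a replicate, and a member must have a peak in every library, which keeps out regions that fell below detection. All 8 day 9 libraries lay more than 2-fold above all 3 single libraries in 29 members (0.151%) and below them in 3 (0.0156%), close to the 0.153% and 0.0128% of all 23471 regions open in every library. Of the 29, 18 had a readable promoter status and 0 of those overlapped a promoter window. A region inside Vav3, an exchange factor of antigen receptor signalling, is 1 of them, named after its values were seen. It had 45.5 and 28.6 tags per 10 M in high_to_high, 31.7, 48.9 and 43.4 in low_to_high and 38.2, 55.8 and 47.5 in low_to_low libraries, against 7.43 in effector, 18.7 in antigen-experienced and 16.5 in naive cells.

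Between antigen-experienced and naive cells, 286 members (1.49%) were more than 2-fold higher and 73 (0.379%) more than 2-fold lower, against 3.69% and 1.07% of the 44068 regions called in both. The naive library also entered the rule, so nothing is read from these shares.

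The day 9 comparisons ask whether any always-open stable region follows the YFP state. Few did. In YFP-high against YFP-low libraries, limma with Benjamini-Hochberg adjustment over 34383 regions called 25 members higher (0.130%) and 0 lower, against 0.329% and 0.00291% of all regions tested. On the deposited scale, without centring, 15 were higher and 1271 lower. At an unadjusted p under 0.05 there were 554 higher and 676 lower (6.39% of members), against 1634 and 1142 of all regions (8.07%). In 99.8% of members the difference was smaller than 1.5-fold. Of the 20 called members whose promoter status could be read, 1 lay at a promoter, that of Nr6a1, an orphan nuclear receptor. The called members had a median range of 1.55 over the 9 libraries, against 0.57 for all members, and part of that range is the difference that was called.

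The member with the lowest adjusted p lies inside Ncald, which encodes a calcium sensor (chr15:37482439-37482791). It had 33.9 and 24.8 tags per 10 M in high_to_high and 24.9, 19.9 and 26.6 in low_to_high libraries, against 15.6, 13.7 and 14.2 in low_to_low libraries. All 5 YFP-high values exceeded all 3 YFP-low values, with a log2 difference of 1.00 ± 0.15 (SE; limma, adjusted p = 0.000348). The single libraries were lower still, with 5.17 in effector, 9.16 in antigen-experienced and 6.66 in naive cells.

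A region inside Foxp1 (chr6:99486292-99486538) had 26.7 and 25.8 tags per 10 M in high_to_high and 24.3, 21.1 and 22.3 in low_to_high libraries, against 21.1, 11.3 and 12.7 in low_to_low libraries. Low_to_low replicate 1 met the lowest YFP-high value and the other 2 lay below it, with a log2 difference of 0.91 ± 0.16 (limma, adjusted p = 0.00319). A region 4431 bp from Fabp4, a fatty acid binding protein gene, was low in all libraries, with 18 and 14.3 in high_to_high and 13.4, 10.5 and 9.60 in low_to_high, against 9.59, 5.14 and 4.94 in low_to_low libraries. Its log2 difference was 1.15 ± 0.20 (limma, adjusted p = 0.00299). A region inside Gigyf2, a regulator of translation, had 17.8, 14.6, 17.0, 16.1 and 13.2 in the 5 YFP-high libraries, against 9.22, 11.5 and 8.59 tags per 10 M in the 3 YFP-low libraries, with a log2 difference of 0.86 ± 0.14 (limma, adjusted p = 0.00205). It held 31.4 in effector, 43.2 in antigen-experienced and 46.0 in naive cells.

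The other named members rose by log2 differences of 0.53 to 0.91. They lie inside Gypc (a membrane skeleton protein, chromosome 18), Slc17a8, Arl6ip6, Zfp286 and P4ha2 and next to Tnks2. No member was called lower. The lowest p belonged to Aebp2, a partner of the Polycomb complex (-0.41 ± 0.10, adjusted p = 0.064), and to the promoters of the ribosomal protein gene Rps10 (-0.39 ± 0.10, adjusted p = 0.080) and of Notch2 (-0.37 ± 0.10, adjusted p = 0.084; limma).

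The medians of promoter and distal members differed. The sign of the distal median depended on centring, while the promoter median was below 0 on both scales. After centring, the log2 difference of YFP-high against YFP-low libraries had a median of -0.05 over 5920 promoter members, 0.02 over 9656 distal members and -0.00 over all regions. On the deposited scale these medians were -0.27, -0.20 and -0.22, all below 0. With cyclic loess, another scaling, they were -0.02, 0.01 and -0.00, the promoter median nearer to 0 than after centring. After centring, 31 promoter members were higher and 314 lower at an unadjusted p under 0.05 (5.83%). Of distal members, 409 were higher and 219 lower (6.50%), against 1634 and 1142 of all regions (8.07%). With cyclic loess, 81 promoter members were higher and 198 lower, and 371 distal members were higher and 205 lower. Neighbouring regions are not replicates, so these counts are descriptions. The percent of tags in peaks differed between the YFP states in the same libraries, and its part was not tested. The 8 lists of basic cell functions held 10 to 106 members each nearest to a listed gene. Of these, 0 were called in either direction in any of the 4 day 9 comparisons. Over all regions, 0.329% were higher and 0.00291% lower for the YFP state. The shares were 0.558% and 0.0378% for high_to_high and 0.032% and 0% for low_to_high, each against low_to_low. They were 0% and 0% for low_to_high against high_to_high. Of all members, 0.130% were higher for the YFP state. In lists of this size 0 calls is near these shares, so nothing is read from it.

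These counts rested on single libraries. They were 8 without high_to_high replicate 1, 4 without low_to_low replicate 2, 6 without low_to_low replicate 3, 41 without low_to_low replicate 1 and 40 without low_to_high replicate 2. With replicate number as a block the count was 49 higher and 2 lower, and 0 were called once the percent of tags in peaks entered the model. With that covariate, the log2 difference was 0.84 for Gigyf2 and 1.12 for Arl6ip6, close to or above the values without it, and 0.47 for Ncald and 0.22 for Foxp1, below them. The median standard error over members was 0.20 with the covariate and 0.12 without it.

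High_to_high against low_to_low libraries gave more calls. Limma called 37 members higher (0.192%) and 9 lower (0.0468%), against 0.558% and 0.0378% of all regions. Among the members higher in high_to_high libraries, Ncald, Fabp4, Slc17a8, Gypc, Foxp1 and Gigyf2 were named above for the YFP state. The comparisons share the low_to_low and high_to_high libraries. The others named were Stra6 (a retinol receptor gene), Rnpepl1, Peli2 and Ccr1 (a chemokine receptor gene). The region inside Stra6 had 19.4 and 15.6 tags per 10 M in high_to_high, against 9.47, 8.72 and 7.73 in low_to_low libraries, a log2 difference of 1.23 ± 0.19 (limma, adjusted p = 0.000629). Low_to_high libraries had 10.5, 13.0 and 10.6 there, between the other groups. Named members were picked for the difference between those groups, so nothing is read from the middle place of low_to_high, here or below. A member assigned to Tbx21, the gene of the effector factor T-bet (chr11:97096144-97096451), was the 1 called member of the effector list, with 17.8 and 13.0 in high_to_high, against 11.8, 9.56 and 7.30 in low_to_low libraries (log2 difference 0.93 ± 0.21, limma, adjusted p = 0.025).

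The 9 lower members had a median of 41.9 tags per 10 M over the 9 libraries, against 14.0 for the 37 higher ones, and 3 of the 8 whose promoter status could be read were promoters, against 1 of 30 of the higher ones, that of Tank. The promoter of Notch2, a receptor of cell contact signalling (chr3:98013346-98013611), had 32.3 and 33.5 tags per 10 M in high_to_high, against 53.1, 64.3 and 57.6 in low_to_low libraries. The groups did not overlap, with a log2 difference of -0.51 ± 0.12 after centring (limma, adjusted p = 0.026). Low_to_high libraries had 43.0, 41.9 and 41.8, between the other groups. The promoter of Rnf145, a ubiquitin ligase gene (chr11:44518608-44518940), had 21.5 and 22.7, against 36.6, 49.3 and 36.7 in low_to_low libraries (-0.55 ± 0.13, limma, adjusted p = 0.027), and 34.8, 34.0 and 36.0 in low_to_high libraries. The promoter of Selenow, a selenoprotein gene, had 44.5 and 30.8, against 62.1, 70.5 and 71.5 (-0.57 ± 0.13, limma, adjusted p = 0.033). The 30.8 came from high_to_high replicate 2, the library with windows of 136 bp. The other 6 lay near or inside Zfp292, Tnrc6b (a partner of Argonaute), Meak7, Aebp2, Dcps and BC048562, at log2 differences of -0.52 to -0.73.

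**Figure D4:**
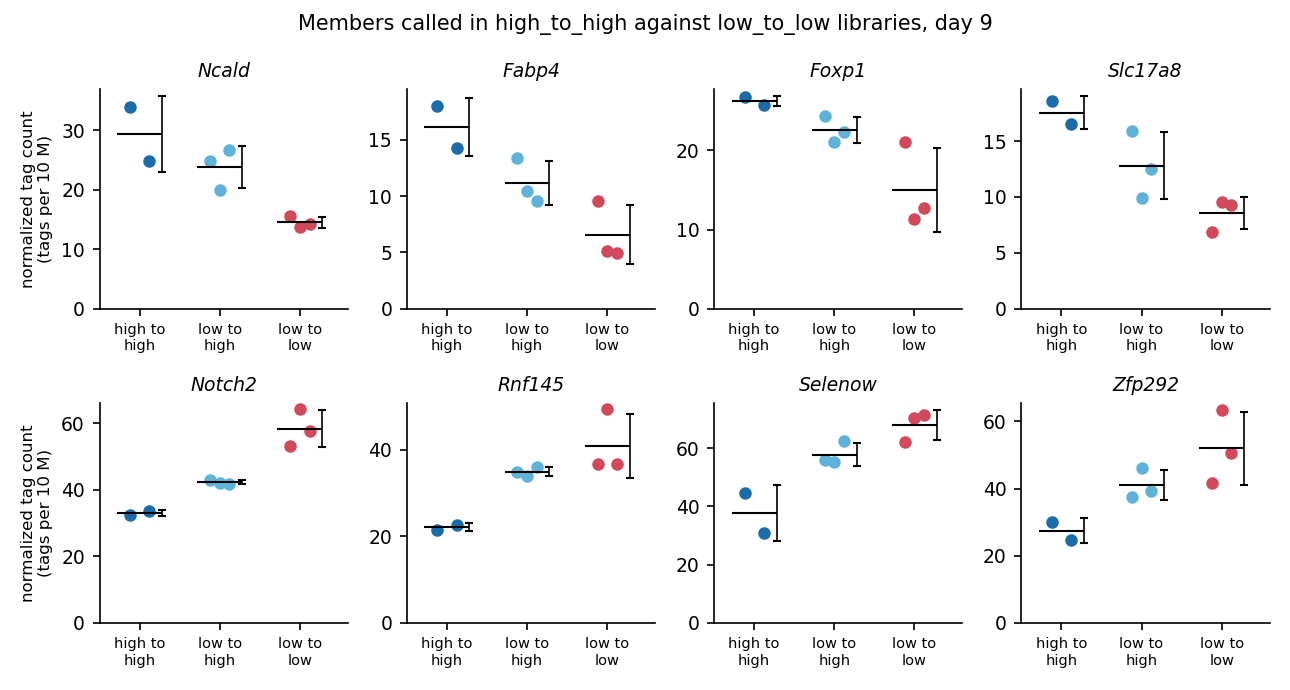
Normalized tag count (y axis, tags per 10 M) of 8 members in high_to_high (dark blue), low_to_high (light blue) and low_to_low (red) libraries, with the mean (line) and SD (bar). Ncald, Fabp4, Foxp1 and Slc17a8 stand higher in high_to_high libraries (Ncald 33.9 and 24.8, against 13.7 to 15.6 in low_to_low), and Notch2, Rnf145, Selenow and Zfp292 lower, with low_to_high libraries between the other groups on average. The members were picked for the difference of high_to_high against low_to_low, so nothing is read from that middle place.

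These counts turned on replicates too. High_to_high replicate 2 entered the fits with windows of 136 bp, against 172 bp in the other day 9 libraries. Without replicate 1 it is the only high_to_high library left, and the part of its windows was not tested. Without high_to_high replicate 1, the calls were 9 higher and 88 lower, without high_to_high replicate 2 they were 20 and 10, without low_to_low replicate 2 they were 12 and 0, and without low_to_low replicate 3 they were 22 and 1. On the deposited scale, which keeps the lower share of tags in peaks of YFP-high libraries, 26 were higher and 4908 lower. The number and balance of these calls thus depended on centring. The median difference over members was -0.02 after centring and -0.31 on the deposited scale, below 0 on both. Limma called 0 members when the share of tags in peaks was added to the model, at log2 differences of 1.02 for Rnpepl1, 1.12 for Slc17a8, 1.01 for Stra6 and 0.39 for Foxp1.

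Low_to_high against low_to_low libraries gave 1 called member, the Ncald region (0.84 ± 0.15, limma, adjusted p = 0.021), which is 0.00520% of members, and 0 lower, against 0.032% and 0% of all regions. At an unadjusted p under 0.05 there were 450 higher and 411 lower (4.47% of members), against 1172 and 738 of all regions (5.56%). The lowest p among those below belonged to the Vhl promoter (-0.45 ± 0.13, adjusted p = 0.395), Wbp1l (-0.42 ± 0.12, adjusted p = 0.418) and Susd1 (-0.56 ± 0.17, adjusted p = 0.501; limma). Same-numbered libraries of these groups deviated together, and with replicate number as a block 18 members were called, all higher. Ncald was not called without low_to_low replicate 2 or 3 or without low_to_high replicate 1 or 3, and 10 members were called without low_to_low replicate 1.

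Low_to_high against high_to_high libraries gave 0 members in either direction with limma, as over all regions (0% and 0%). At an unadjusted p under 0.05, 601 were higher and 318 lower (4.78% of members), against 907 and 842 of all regions (5.09%). The lowest p belonged to the promoters of Adsl (a purine synthesis gene, 0.56 ± 0.13), Rnf145 (0.52 ± 0.13) and Med6 (0.49 ± 0.12), higher in low_to_high, and to Smad3 (-0.49 ± 0.12), Susd1 (-0.73 ± 0.19) and Stra6 (-0.70 ± 0.19), lower, at an adjusted p of 0.923 for each (limma). Adsl had 56.4, 62.5 and 64.3 tags per 10 M in low_to_high, against 46.1 and 30.7 in high_to_high libraries, and 54.6, 76.8 and 60.4 in low_to_low libraries. The 30.7 came from high_to_high replicate 2, the library with windows of 136 bp. It is the only high_to_high library left without replicate 1, and the part of its windows was not tested. Without high_to_high replicate 1, 10 members were called higher.

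The thresholds of the rule cut through a continuum. The 3 members just under the upper limit of d lay near or inside Tmem163, Cdhr3 and Phb, at a d of 0.99983 to 0.99991. Tmem163 had 7.71 tags per 10 M in effector and 6.13 in naive cells. Just outside, Cryba4 had 13.3 in effector and 10.7 in naive cells, beside 2 regions without a gene within 100 kb on chromosomes 12 and 2. At the lower limit the regions just inside lay near or inside Ost4 (29.3 in effector, 98.2 in naive cells), Herc1 and Ccdc136. Those just outside lay near or inside Armh3 (7.61 in effector, 27.2 in naive cells) and Gm12185, beside a region on chromosome 18 without a gene within 100 kb. With the antigen-experienced library in place of the naive one in the rule, 20079 regions would be chosen, and 18363 of them were members, 95.4% of the members and 91.5% of that set.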

How the data were processed

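The data are ATAC-seq peak lists of 11 mouse CD8 T cell libraries, 1 list per library, called without pooling. Per the file headers the authors called peaks with HOMER 4.10 findPeaks. Build mm10, Bowtie2 and DESeq2 are listed too, per the submitters' processing notes, without the step DESeq2 served. The deposited normalized tag count is a signal value, the tags in a peak window per 10 M tags, per the file headers. The deposited focus ratio is a fraction of tags on the expected side of the peak centre. The deposited findPeaks score ranks peaks. The deposited fold change over the local background is a ratio. Depth was 20.8 to 59.97 M tags, and weak regions missing from a list are not known to be closed.

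The members and the lists were chosen with earlier results of these data known, so no list is independent support. Peaks were merged with Python 3.11.15. Each region took its highest tag count per library. Day 9 groups were compared by limma (version 3.58.1, R 4.3.3; lmFit, then eBayes with a trend). The values were log2(normalized tag count + 1) of the 34383 regions that all 8 libraries had called, every member among them, after subtracting the library's median. Adjusted p under 0.05 was a call. Fold changes on this scale understate low values. Single values per library were compared by exact permutation. The fit was tested on simulated data. Gene names and promoter windows are from RefSeq (GRCm38.p6). Of 21631 protein-coding genes, 17274 (79.9%) have a window. Named regions are up to 10 called members per comparison and direction (or the 3 lowest p), the 10 highest levels, the 10 smallest and 10 largest ranges, the 3 regions on each side of each threshold, and up to 4 promoters per gene list. A member in several parts of the rule counts in each. Replicate blocks were fitted as an alternative. Other alternatives were another pseudocount, a level filter, other scalings, a covariate, each library left out, and other settings of the rule. Same-numbered low_to_high and low_to_low libraries correlated weakly in their deviations from group means (r = 0.30, 0.14 and 0.16). Libraries of these groups with other numbers had r = -0.19 to 0.02. The labels do not state that the numbers pair the samples, and the main model did not use them. Same-numbered high_to_high libraries did not correlate with either group (r = -0.03 and -0.01), yet the replicate block spans them too. Distal regions have no sequence here, since the genome sequence was not used. One region that the naming rule picks is not reported here.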

Additional observations from a re-analysis of the deposited data

Results flagged for a closer look

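Within the 5 YFP-high libraries, 108 values (7 values per library and 101 named regions) were checked for a library far from the other 4, and 9 were. Chance gives about 1 in 20. High_to_high replicate 2 stood apart in the share of peak signal in members (49.6%) and in the median fold of members over local background (12.3), and it is the library with windows of 136 bp. Its value was also low at the promoters of Mrps18b (70.9 tags per 10 M, against 81.5 to 91.2 in the other 4 libraries) and Polr2h (51.3, against 63.5 to 74.4). High_to_high replicate 1 was high at Gypc (57.1, against 41.5 to 46.4) and Ctcf (43.0, against 31.1 to 37.0). Low_to_high replicate 1 was high at Srsf2 (81.3, against 56.7 to 66.5), low_to_high replicate 2 low near Grxcr2 (55.4, against 61.7 to 66.2), and low_to_high replicate 3 high at Rabgap1l (28.1, against 19.4 to 22.8).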

How the results depend on the processing

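The number of members was 19246, and 12177 without centring. The other settings of the rule gave 13096 to 20395. Of members, 38.0% lay at a promoter, and 44.6% within 1000 bp of a window, 35.0% with d within a 1.5-fold change, 59.3% at a mean of at least 20, and 31.9% with all members on chromosomes with windows in the denominator (the last added after seeing the data, as were the antigen-experienced library in the rule and the signal share without the 5 strongest members, -0.77 points). Called members were 25 for YFP-high against YFP-low, 46 for high_to_high against low_to_low, 1 for low_to_high against low_to_low and 0 for low_to_high against high_to_high. On the deposited scale they were 1286, 4934, 0 and 1. With the percent of tags in peaks as a covariate they were 0 in all 4. With the replicate block they were 51, 88, 18 and 0, though high_to_high libraries did not deviate together with same-numbered libraries of the other groups. Leaving out 1 library gave 4 to 41, 12 to 97, 0 to 10 and 0 to 10. A level filter gave 2 for low_to_high against low_to_low. The cause of these shifts was not tested. Pseudocount 5 and cyclic loess kept each count within 1.5 times. No named region of these comparisons changed direction in any setting, and all 30 named results that passed the threshold lost their call with the covariate. Of these 30, 18 lost it without low_to_low replicate 2 and 16 without low_to_low replicate 3. Centring moved the median difference over all regions by over 0.1 (log2): on the deposited scale it was -0.22, -0.30, -0.17 and 0.13 in the 4 comparisons in the order above. The difference between promoter and distal medians was -0.08 to -0.11 when 1 library was left out and did not pass under the replicate block (exact permutation test, p = 0.222, where 0.111 is the smallest possible). The signal share difference ran from -1.27 to 0.45 points when 1 library was left out, positive without high_to_high replicate 2 alone, and was -0.74 points with the replicate block (exact permutation test, p = 1). With 5 against 3 libraries the exact tests cannot give a p under 0.036.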
